A study of Arabidopsis thaliana with 6 samples.

Results

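The genes described here had a higher array signal when sucrose was present during anoxia, in both experiments of a study of Arabidopsis thaliana seedlings. They are 44 probe sets (the sets of short oligonucleotides by which an Affymetrix array reads a transcript) out of 22746, of which 15922 were bright enough to be considered. Members were chosen from the measured values: signal plus 16 was put on a log2 scale and centred on each array's median, and the level under anoxia with sucrose had to exceed that under anoxia by more than 1 in experiment 1 and again in experiment 2. Probe sets annotated to small heat shock protein genes or to the glutaredoxin gene GRX480 that also met this were set aside. The annotation gives 21 of the 44 a single gene and gives 23 no gene. Small heat shock protein genes among those 23 could not be recognized and may remain. The 3 groups, of 2 arrays each, were seedlings kept for 6 h under anoxia with 90 mM sucrose, seedlings kept for 6 h under anoxia without it, and seedlings kept for 6 h in air, also without it. All belonged to the ecotype Columbia glabra and had spent 4 days in darkness at 23 °C on medium with no added sucrose. Each array carried RNA of whole seedlings, pooled from 4 cultures, and each group had 1 array from experiment 1 and 1 from experiment 2.

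Without oxygen the mitochondria of a plant cell cannot respire, and ATP then comes from glycolysis and fermentation, which use up sugar quickly. Sucrose fed to seedlings is split into hexoses that enter glycolysis, and sugars also act as signals that switch plant genes on and off. Many stress genes of Arabidopsis, among them calmodulin-like proteins, glutathione transferases and genes of the jasmonate pathway, respond within minutes to hours to wounding, touch, pathogens and chemicals.

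The arrays differed in brightness and RNA quality. Median signal lay between 21.2 and 50.6, with the lowest on the sucrose array of experiment 1. On that array the 3′ actin control probe set read 21.6 times its 5′ partner, against 1.70 to 4.24 on the other 5 arrays. For a second actin pair the ratio was 20.3 on that array and 18.5 on the air array of experiment 1, against 8.36 to 11.01 on the other 4 arrays. For a GAPDH control pair it was 3.46 on the sucrose array of experiment 1, against 0.761 to 1.40 on the other 5 arrays. A second GAPDH pair gave 7.61 there, against 1.38 to 2.42. Levels below are log2(signal + 16) relative to the array median, so that 0 is the median and the added 16 compresses changes of dim genes. The lowest level of a tested probe set was -1.19 and -2.01 on the sucrose arrays of experiments 1 and 2. On the anoxia arrays it was -1.88 and -1.54. A gene without signal would thus read higher with sucrose in experiment 1 and lower in experiment 2. Differences of dim genes can therefore be overstated as well as understated. A brightness depends on the probes as well as on the transcript, so levels of different genes are not set against each other as amounts. In whole seedlings a change in RNA per cell and a change in the share of a cell type cannot be told apart.

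The rule itself was met by 48 of 15922 probe sets (0.301%), and its mirror image, a difference below -1 in both experiments, by 9 (0.0565%). Those set aside were AT2G29500, ATHSP22.0, 1 probe set shared by the small heat shock genes AT1G59860 and AT1G07400, and GRX480. Over the 44 members the difference ran between 1.03 and 3.21 in experiment 1 (median 1.43) and between 1.00 and 2.58 in experiment 2 (median 1.27). It was the larger in experiment 1 for 30 of the 44 members (68.2%), against 43.4% of all tested probe sets; the part of the uneven actin control in experiment 1's sucrose array was not tested. The smaller of both differences was 1.00 for AT3G05920, 1.02 for AT3G28940 and 1.05 for ASPGB1, the members nearest the threshold. Just outside it lay 3 probe sets without a gene in the annotation, at 0.9997, 0.990 and 0.985. These differences chose the members, so they are given with no test. Over all probe sets limma called 0 of 15922 (0%) in this contrast, 161 of which had an unadjusted p under 0.05, and 3 (0.0188%) with the experiment as a block.

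**Figure D1:**
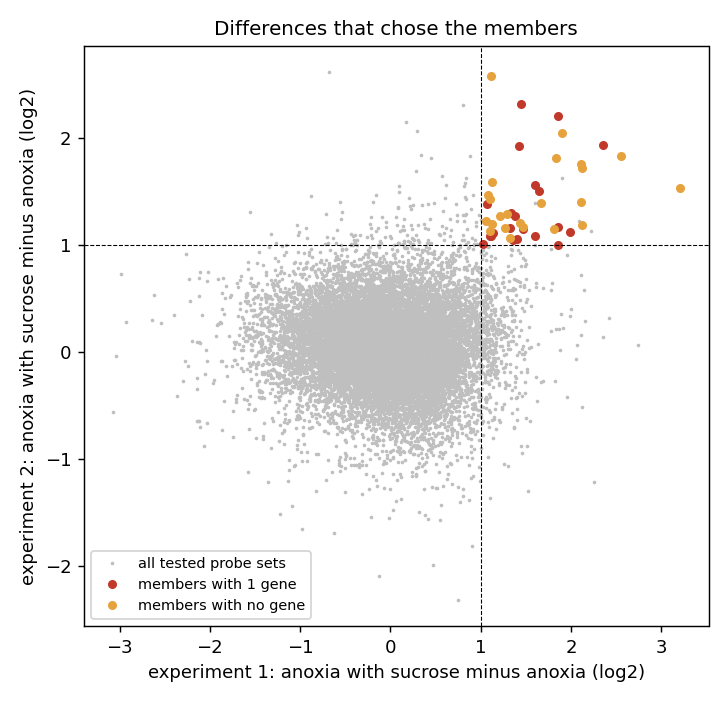
Difference between anoxia with sucrose and anoxia (log2) in experiment 1 (x axis) and experiment 2 (y axis) for all 15922 tested probe sets (grey) and the members with 1 gene (red, 21) and with no gene (orange, 23). Dashed lines mark the threshold of 1, and grey points beyond both lines are the probe sets set aside.

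Signalling genes come first. AT1G76640, known as CML39, encodes a calmodulin-like protein, a calcium sensor. In experiments 1 and 2 its level was 1.94 and 0.89 under anoxia with sucrose, 0.50 and -1.44 under anoxia, and -1.80 and -1.50 in air. Both sucrose arrays lay above all the others, and the anoxia array of experiment 2 read much like the air arrays. Its signal was 1.9 and 0.6 in air, far below the added 16, so that its distance from air is a lower bound. RALFL33 encodes a peptide of the RALF family, secreted signals that are read at the cell surface and can raise the pH of the cell wall. Its level was 4.30 and 3.28 under anoxia with sucrose, 3.16 and 2.17 under anoxia and 4.52 and 4.09 in air. Here air was the highest group for RALFL33 in experiment 2 and, by 0.21, in experiment 1.

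LBD29, a transcription factor that acts downstream of auxin in forming lateral roots, was at -0.08 and -0.31 under anoxia with sucrose, -1.18 and -1.40 under anoxia, and 0.85 and 0.37 in air. The 3 groups did not overlap, with sucrose between the others. Its anoxia signals of 11 and 2.2 were below 16. AT1G53690 encodes a protein like a small subunit of nuclear RNA polymerases. It was at 3.27 and 1.07 under anoxia with sucrose, 1.95 and -0.09 under anoxia and 0.25 and 0.94 in air, so that within each anoxic group the experiments differed by more than the anoxic groups did.

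Of the enzymes, AT5G05600, a jasmonate-induced oxygenase known to hydroxylate jasmonic acid, read 2.04 and 1.16 under anoxia with sucrose, 0.44 and -0.41 under anoxia and 0.00 and -0.67 in air. Both sucrose arrays lay above the other 4 arrays. GSTU25, a tau-class glutathione transferase, was at 1.57 and 0.44 under anoxia with sucrose, -0.29 and -0.73 under anoxia and -1.61 and -0.99 in air. The 3 groups did not overlap, in the order sucrose, anoxia, air, and both air signals, 4.4 and 7.6, were below 16. AT1G68620, of the carboxylesterase family, was at 2.13 and 1.17 under anoxia with sucrose, 0.79 and -0.13 under anoxia and -0.24 and 0.36 in air. ASPGB1, an asparaginase that releases ammonium from asparagine, was at 4.15 and 1.96 under anoxia with sucrose, 2.79 and 0.91 under anoxia and 1.64 and 1.05 in air, and its sucrose array of experiment 2 lay below the anoxia array of experiment 1.

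The next genes encode proteins of the dirigent, CAP and heavy-metal-associated families. The first is AT3G13650, of the dirigent family, whose members steer the coupling of phenolic compounds. Its level was 4.72 and 1.73 under anoxia with sucrose, 2.86 and -0.47 under anoxia and 1.28 and 0.06 in air. The experiments differed by about 3 log2 units in each anoxic group, so that the groups overlapped although sucrose was higher in each experiment. AT5G66590, of the CAP family of secreted proteins, was at 3.46 and 1.49 under anoxia with sucrose, 2.39 and 0.11 under anoxia and 3.18 and 2.51 in air. AT3G05920, with a heavy-metal-associated domain, was at 5.84 and 3.09 under anoxia with sucrose, 3.98 and 2.09 under anoxia and 4.05 and 3.34 in air. For AT5G66590 and AT3G05920 the anoxia arrays were below air within each experiment, and the sucrose arrays above air in experiment 1 and below it in experiment 2.

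Several members have no well established function, and they include some with the largest differences. AT2G41730 was at 4.63 and 1.77 under anoxia with sucrose, 2.27 and -0.17 under anoxia and 0.23 and -0.39 in air, on a probe set whose name marks sequence shared with other transcripts. AT4G36500 was at 5.62 and 3.54 under anoxia with sucrose, 3.97 and 2.03 under anoxia and 2.92 and 1.71 in air. In both genes sucrose was highest in each experiment, and the sucrose array of experiment 2 lay below the anoxia array of experiment 1.

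AR781 varied little between experiments, at 1.79 and 2.20 under anoxia with sucrose, 0.35 and 0.27 under anoxia and 0.16 and -0.02 in air. Its SD between replicates was at most 0.29, and the sucrose arrays lay well above the other 4. AT1G28190 was at -0.14 and -0.15 under anoxia with sucrose, -1.52 and -1.42 under anoxia and -0.94 and -0.24 in air, and its anoxia signals of 5.4 and 1.9 were below 16. Sucrose and air were both above anoxia for AT1G28190, and sucrose was 0.80 above air in experiment 1 and 0.09 in experiment 2.

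The other 6 named members are given as group means ± SD (n = 2). AT5G10695 averaged 5.04 ± 1.12 under anoxia with sucrose, 3.81 ± 0.88 under anoxia and 2.32 ± 0.32 in air. AT1G19020 averaged 3.55 ± 1.48, 2.21 ± 1.11 and 0.92 ± 0.71 in the same groups, so that AT5G10695 and AT1G19020 share the order sucrose, anoxia, air. AT4G09890, of a plant family with a domain of unknown function, averaged 2.55 ± 0.73 under anoxia with sucrose, 0.99 ± 0.12 under anoxia and 3.09 ± 0.04 in air. AT3G57450 averaged 3.28 ± 0.26 under anoxia with sucrose, 2.18 ± 0.23 under anoxia and 3.96 ± 0.29 in air, with sucrose between the other groups in AT4G09890 and AT3G57450 alike. AT2G34585 averaged 4.42 ± 1.31 under anoxia with sucrose, 3.11 ± 1.09 under anoxia and 3.45 ± 0.58 in air. AT3G28940, of the AIG2-like family, averaged 4.59 ± 1.47 under anoxia with sucrose, 3.57 ± 1.46 under anoxia and 3.57 ± 1.30 in air, where the spread between experiments exceeded every difference between groups.

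**Figure D2:**
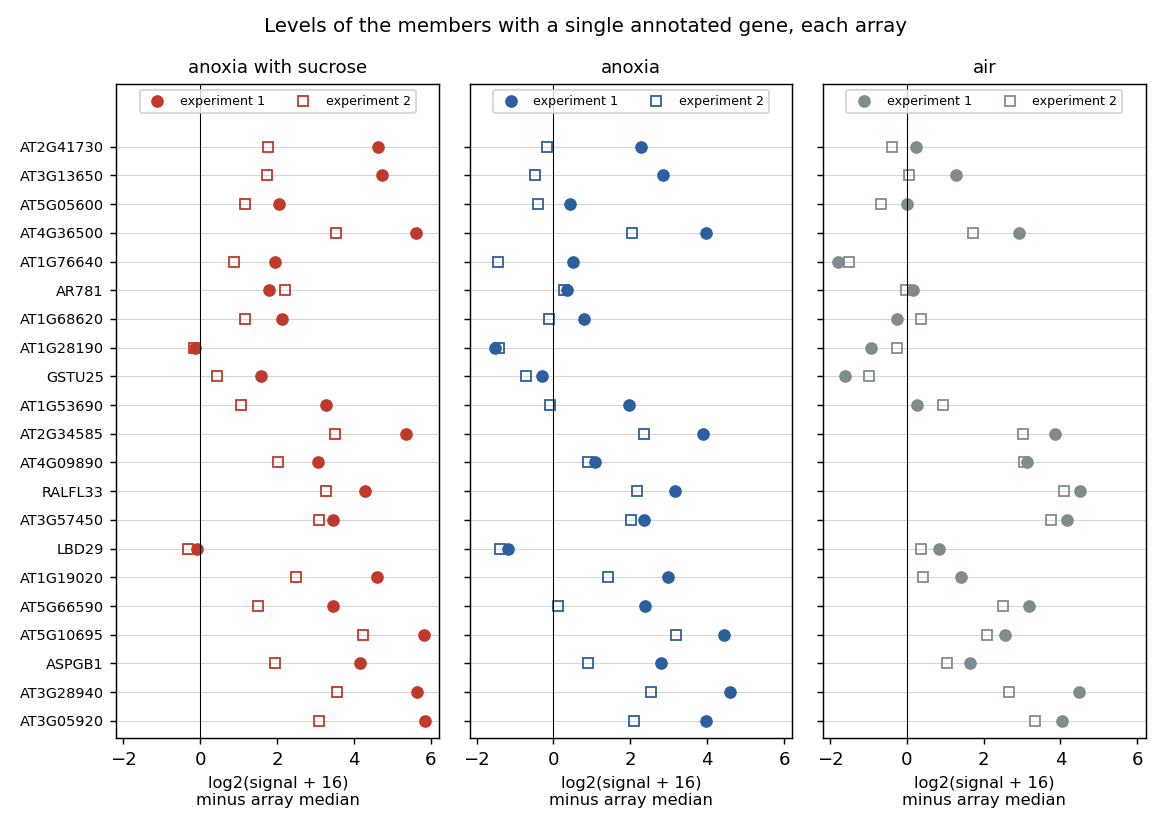
Level on each array, as log2(signal + 16) minus the array median, of the 21 members with 1 gene, in panels for anoxia with sucrose, anoxia and air. Filled circles are experiment 1 and open squares experiment 2. For AT2G41730 and AT3G13650 the experiments lie far apart in both anoxic groups, and for AR781 and LBD29 close together.

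Replicates thus differed more for some members than for others. Both sucrose arrays lay above both anoxia arrays for 32 of the 44 members, 10 of the 21 with 1 gene and 22 of the 23 without, where 9.47% of all probe sets showed this; the rule used the same arrays, so nothing is read from that share. Among the 23 members without a gene, differences reached 3.21 and 1.54 (experiments 1 and 2) for probe set 253884_at, 2.55 and 1.83 for 247691_at and 1.12 and 2.58 for 263433_at. Probe sets were singled out by ID after their values were seen. Since these members have no gene in the annotation used here, whether some of them read small heat shock protein genes could not be checked. No 2 of the 21 named genes are neighbours in the genome: the closest pair is 76 protein-coding genes apart in RefSeq's gene table.

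In air, which enters the rule only through the filter on the 6-array mean, the members spanned nearly the whole brightness range of the array. Their median level in air was 0.94, against 0.77 for all tested probe sets. Both air arrays were above the array median for 28 members (63.6%, against 64.8% of all tested) and below it for 11 (25%, against 22.1%). Both placed 12 members above their 75th percentile of tested probe sets (27.3%, against 20.3%) and 11 below their 25th percentile (25%, against 18.8%). RALFL33 stood at percentiles 96.6 and 96.3 in air, AT3G57450 at 95.2 and 94.7, AT3G05920 at 94.7 and 92.5 and AT2G34585 at 93.8 and 90.2. At the other end AT1G76640 stood at percentiles 0.0534 and 0.0314 and GSTU25 at 0.229 and 2.50, with both air signals below 16 for 5 members in all. The filter used the mean of all 6 arrays, and 38 of the 44 members would reach its level from the air arrays alone.

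**Figure D3:**
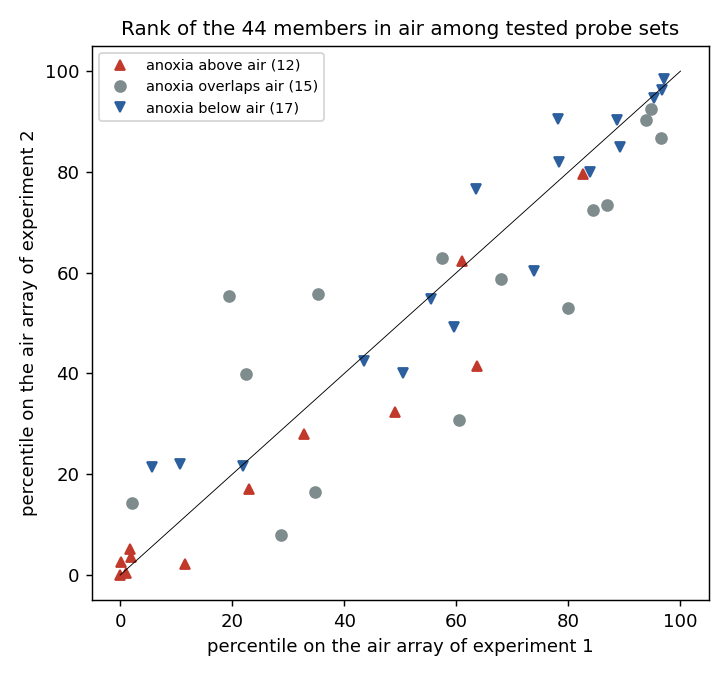
Percentile of each of the 44 members among tested probe sets on the air array of experiment 1 (x axis) and experiment 2 (y axis). Triangles pointing up (12) mark members whose anoxia arrays both lay above both air arrays, triangles pointing down (17) those whose anoxia arrays both lay below, circles (15) the rest. AT1G76640 and GSTU25 have the lowest ranks on the air array of experiment 1, and a member so dim in air could pass the filter only by being brighter in the anoxic groups.

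Set against air, the members did not follow 1 course. Both anoxia arrays lay below both air arrays for 17 of the 44 members (14.9% of all probe sets) and above them for 12 (18.9% of all probe sets). Both sucrose arrays lay above both air arrays for 28 (18.7% of all probe sets) and below them for 4 (14.8% of all probe sets). The anoxia and sucrose arrays are those of the rule, which favours low anoxia and high sucrose values, so these counts are descriptions and have no test. The 12 members above air under anoxia, which the rule then also places above air with sucrose, included AT1G76640, GSTU25, AR781, AT1G19020 and AT5G10695. Of the 17 below air under anoxia, 6 were above air with sucrose, 7 overlapped air and 4 were still below it. AT1G28190 is a member of the first kind, though its signals with sucrose and in air were nearly alike in experiment 1. AT4G09890, RALFL33 and AT5G66590 are of the second kind, and LBD29 and AT3G57450 of the third.

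The step between anoxia without sucrose and air varied between the experiments. Its median over the members was 0.08 in experiment 1 and -0.47 in experiment 2, against 0.10 and 0.03 over all probe sets. AT2G41730 was 2.03 above air under anoxia in experiment 1 and 0.22 in experiment 2, and AT1G76640 2.30 and 0.06. AT1G53690 was 1.70 above air in experiment 1 and at -1.03 in experiment 2, and AT3G13650 at 1.58 and -0.54. LBD29 gave -2.03 and -1.77 and AT4G09890 -2.04 and -2.15, so that both lay below air by like amounts each time. With sucrose the median distance from air was 1.46 in experiment 1 and 0.91 in experiment 2, against 0.03 and 0.11 over all probe sets. Because the rule favours low anoxia and high sucrose values, the members' medians are descriptions with no test.

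A contrast orthogonal to the one that chose the members is the mean of both anoxic groups minus air. Being orthogonal concerns the errors only, since the sucrose values that the rule chose make up part of this mean. A member above air with sucrose alone can therefore be called higher. The error of this contrast takes in disagreement between the experiments. The rule tends to keep small only the part that concerns the difference between the anoxic groups. It does not limit a shift that both anoxic groups share between experiments. By limma over all 15922 probe sets 5 of the 44 members were higher than in air and 0 lower, where 0.484% of all probe sets were called, 0.239% higher and 0.245% lower. All 5 lack a gene in the annotation, so whether they read small heat shock protein genes could not be checked. Of the 5 called, 4 lay in air below the level the filter asks for, so they entered the test only through the anoxic arrays. For these 4 the filter required some difference from air. That required difference was slight for 254059_at, whose mean in air was -0.8442 against a filter level of -0.8435. Among the 38 members that reach that level in air, 1 was called, 250296_at (0.435% of all such probe sets). Probe set 254059_at rose by 3.47 ± 0.45 (SE, adjusted p = 0.0112), to 3.19 and 4.01 under anoxia with sucrose and 1.08 and 2.24 under anoxia, against -0.67 and -1.02 in air. The other 4 were 253884_at at 3.26 ± 0.48, 250296_at at 3.14 ± 0.44, 247691_at at 2.54 ± 0.42 and 253046_at at 1.88 ± 0.33, with limma adjusted p between 0.0144 and 0.0406. Small heat shock protein genes that were set aside gave 3.51 ± 0.41 (HSP17.6B, the gene AT2G29500) and 3.25 ± 0.43 (HSP22.0) in the same contrast. Leaving out either air array ended all 5 calls, the count was 1 with quantile normalization, and leaving out the sucrose array of experiment 2 gave 8 in place of 5.

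None of the 21 members with 1 gene passed without a block. An unadjusted limma p under 0.05 was found for 11 of them (52.4%, against 8.21% of all tested probe sets). These 11 include AT1G76640 and GSTU25, which lay below the filter's level in air. LBD29 came nearest to passing, at -1.35 ± 0.27 (limma adjusted p = 0.0682). Limma with the experiment as a block called 21 of the 44 members, 16 higher and 5 lower, where it called 4.13% of all probe sets (1.78% higher and 2.34% lower). Of the 38 members that reach the filter's level in air it called 15, 10 higher and 5 lower (3.99% of all such probe sets). The rule favours members on which the experiments agree about the difference between the anoxic groups. Disagreement about that difference is part of the error of the block fit, which has 2 residual degrees of freedom. The members' share is therefore not independent of the rule and is given as a description. The calls included 11 of the 21 members with 1 gene. The 9 higher ones were AT1G76640 (2.12 ± 0.50, SE without the block; adjusted p = 0.000538 with it), AT2G41730, AT5G10695, AT1G19020, GSTU25, AT3G13650, AT4G36500, AT5G05600 and AR781, with changes between 1.08 (AR781) and 2.20 (AT2G41730). AT1G76640 and GSTU25 lay below the filter's level in air, so for them a difference from air was fixed by the filter. Over the 9 higher ones, anoxia minus air ran from 0.24 (AR781) to 1.49 (AT5G10695). Anoxia with sucrose minus air ran from 1.92 (AR781) to 3.28 (AT2G41730), so these calls rest in part on the sucrose values the rule chose. The 2 lower ones were LBD29 (adjusted p = 0.00224 with the block) and AT4G09890, which at -1.32 ± 0.44 lay at the threshold (adjusted p = 0.0499 with the block). RALFL33, at -1.07 ± 0.50, and ASPGB1, at 1.11 ± 0.69, did not pass either way.

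**Figure D4:**
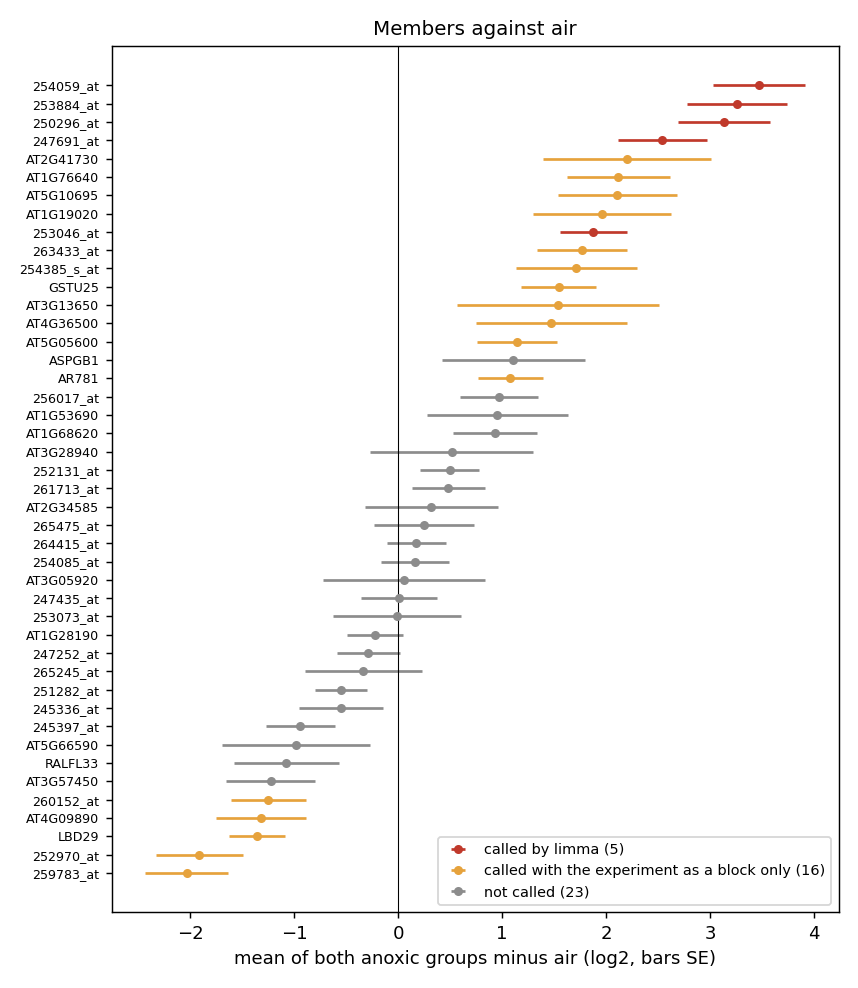
Mean of both anoxic groups minus air (log2) for the 44 members, highest at the top, with bars of 1 SE from the limma fit without a block. Red marks the 5 members called by that fit, orange the 16 called only with the experiment as a block, grey the 23 others.

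Few genes of the pathways around these members could be measured, since the annotation names so few probe sets. In the contrast of anoxia with sucrose against anoxia, limma called 0 genes of each list below, with and without the block, and the median over all probe sets was -0.01. An unadjusted p under 0.05 was seen for 4 small heat shock protein genes, for GRX480 and for GSTU25, which this contrast had chosen. The detoxification list had 4 tested genes of 29, a median of 0.35 (0.73 in experiment 1 and -0.02 in experiment 2), and 3 genes above 0. Of the members with 1 gene only GSTU25 is on it, with UPOX, a mitochondrial stress gene, at 0.47 ± 0.72 and GSTU22 at 0.22 ± 0.36 (SE). Early stress genes, with 5 of 41 tested, had a median of -0.05, with ZAT10, a zinc finger repressor, at 0.36 ± 0.48, WRKY22 at -0.25 ± 0.54 and PUB23, a ubiquitin ligase, at 0.21 ± 0.31. Heat stress genes other than small heat shock proteins had a median of 0.36 (0.04 in experiment 1 and 0.66 in experiment 2), and 3 of 5 tested genes were above 0 in both experiments, where 25.6% of all probe sets were. Their largest differences were those of the co-chaperone ROF2 at 0.58 ± 0.73, DNAJ (AT2G20560) at 0.36 ± 0.48 and HSA32 at 0.36 ± 0.45. No gene of the 18 on the jasmonate list was among the tested probe sets.

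Sugar response genes that could be tested were few. Both tested genes of the sugar-induced list, the starch genes APL3 at -0.16 ± 0.32 and SBE2.2 at 0.07 ± 0.54, had mean differences near 0. For SBE2.2 the experiments went opposite ways, at -0.44 in experiment 1 and 0.57 in experiment 2. APL3 lay below the array median on all 6 arrays, where changes are compressed and depend on the brightness of the array. The 4 tested sugar-repressed genes lay at a median of -0.57 (-0.91 in experiment 1 and -0.09 in experiment 2), with the leucine breakdown genes IVD at -0.81 ± 0.54, MCCA at -0.60 ± 0.46 and MCCB at -0.54 ± 0.50. Core hypoxia genes, 21 tested, had a median of -0.13 (0.28 in experiment 1 and -0.48 in experiment 2). Among them AT4G24110 was at -0.81 ± 0.78, HRA1, a trihelix repressor of the hypoxia response, at -0.77 ± 0.57 and AT4G17670 at 0.74 ± 1.08. The 9 tested small heat shock protein genes, a class the rule leaves out, had a median of 1.12. Only 2 of the 9 exceeded 1 in both experiments, so the others would not have been members in any case. Organ and cell type markers, 6 tested, had a median of -0.10. They ran from PORB, an enzyme of chlorophyll synthesis, at -0.63 ± 0.63 to the stomatal regulator SPCH at 0.59 ± 0.43 and the root hair expansin EXPA18 at 0.60 ± 0.38. As levels on the 6 arrays, PORB lay between 3.86 and 5.79 and LHCB4.1, a marker of green plastids, between 5.35 and 6.37. AUR1, of dividing cells, lay between 0.23 and 1.04, and EXPA18, FMA and SPCH lay between -1.56 and 0.02. None of these lists holds a member of the 44 apart from GSTU25.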

How the data were processed

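Each of the 6 arrays has 1 deposited intensity per probe set, not on a log scale. How these were computed and scaled is not given in the sources used here. Per the labels, arrays of a group are independent experiments, each of 4 pooled cultures. Groups and experiment numbers come from the titles.

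After removing 64 control probe sets, log2(intensity + 16) was centred on each array's median. The dimmest 30% by 6-array mean were dropped, which kept 15922 of 22746. The test was limma 3.58.1 (R 4.3.3), 1 coefficient per group over all 6 arrays, eBayes with an intensity trend, two-sided, Benjamini-Hochberg over all tested probe sets, threshold 0.05; it was tested on simulated data. The number of arrays limits the precision.

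Experiment numbers, called experiments in the titles, were taken to pair the arrays: differences between replicates correlated across probe sets at r = 0.562 (anoxia with sucrose and anoxia), 0.392 (anoxia with sucrose and air) and 0.383 (anoxia and air). The fit without the block is the main one, and calls that change with it stand beside the results.

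The platform annotation gave 13513 of the 22746 probe sets 1 gene, 503 several and 8730 none; symbols are RefSeq's (TAIR10.1, names and gene order only). For a gene with several probe sets the brightest was used in lists. Every member with 1 gene is named, and of each list up to 3 genes with the largest difference. Members and lists were chosen with earlier results of these data known. Sequences and promoter motifs were not analysed here. Alternatives were pseudocounts of 1 and 64, quantile normalization, no filter or the 50th percentile, no trend, the block, and leaving out each array.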

Additional observations from a re-analysis of the deposited data

How the results depend on the processing

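The number of members found by the rule was 44, and 40 with quantile normalization (34 of them among the 44), 46 with no filter and 37 with the 50th percentile. It was 136 with a pseudocount of 1 (40 shared) and 15 with 64 (13 shared). With 1 experiment alone, an alternative chosen after seeing the data, 195 (experiment 2) to 541 (experiment 1) met the difference. Members called in both anoxic groups against air numbered 5, and 3 with a pseudocount of 1, 10 with 64, 1 with quantile normalization, 10 with no filter, 2 without the trend and 21 with the experiment block; leaving out 1 array gave 0 (either air array) to 8 (the sucrose array of experiment 2). Over all probe sets the count was 77, and in the same order of settings 45, 177, 50, 172, 51 and 657; leaving out 1 array gave 12 (either air array), 19 and 48 (the anoxia arrays of experiments 1 and 2), 99 and 166 (the sucrose arrays of experiments 1 and 2). For anoxia with sucrose against anoxia limma called 0 under every setting run, with 89 to 1030 at an unadjusted p under 0.05, except for 3 with the replicate block. The members' median level in air was 0.94, 0.60 with a pseudocount of 64, and 0.87 to 1.19 on 1 air array alone. Signals below 16, which made up 26.1% to 43.6% of an array, limit what can be said of dim members.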
